A study of Mus musculus with 2 samples.

Results

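The 10 genes described here are typical of the lining of the stomach and oesophagus, and they were measured in adrenal glands. Of 43346 Ensembl genes in the deposited gene tables, these 10 were taken by symbol and matched by Ensembl identifier. They were selected on an earlier comparison of the same libraries, in which several of them lay far apart between the animals, so their differences are given as a description and without a test. There are 7 genes of the glandular stomach (Gkn1, Gkn2, Tff1, Tff2, Cym, Pga5 and Muc5ac) and 3 of squamous epithelium (Krt4, Krt13 and Sprr2a2).

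The study sequenced total RNA of adrenal glands from mice of strain B6NCrl at postnatal day 0, with no treatment named in the labels. Each of the 2 libraries, called pup 1 and pup 2, came from both adrenals of 1 newborn, and the labels give the same pregnancy number for both. Both pups form 1 group, sex was not collected, and each pup is 1 library, so no difference between them has a replicate check. The gene tables summed to 41510071 estimated counts for pup 1 and to 40800539 for pup 2. The defining genes of the labelled tissue were present: all 7 listed genes of the adrenal cortex and all 7 of chromaffin cells reached 1 TPM (a level per transcript length, scaled to the same total in each library) in both pups. The cortex genes summed to 6435 TPM in pup 1 against 17156 TPM in pup 2.

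The mouse stomach has a glandular part, lined by mucus-secreting and enzyme-secreting columnar cells, and a forestomach, which carries a stratified squamous lining continuous with that of the oesophagus. Surface mucous cells secrete gastrokines, trefoil peptides and mucin, and newborn chief-type cells secrete aspartic proteases that clot and digest milk. Squamous cells above the basal layer switch on a pair of keratins and small proline-rich proteins of the cornified envelope.

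All 10 genes had more counts in pup 1. Together they held 8488 counts in pup 1 (0.0204% of the library) and 316 counts in pup 2 (7.74e-04%). After scaling the libraries by TMM (a method that aligns the bulk of genes), the summed counts were 28.5-fold higher in pup 1, with an exact 95% interval of 25.5 to 32.0. This and every later fold interval reflects the number of reads alone, and reads lacking molecular identifiers may be copies of 1 molecule. Of the 10 genes, 9 had a mean count of at least 10, and all 9 were at least 10-fold higher in pup 1. Among all 18670 genes with such a count, 0.525% were at least 10-fold higher in pup 1, 9.77% were at least 2-fold higher in pup 1 and 6.03% at least 2-fold higher in pup 2. Nothing is read from the members' count against these shares, because this same contrast chose the members. In bulk RNA, fewer cells of a type and less RNA per cell cannot be told apart.

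**Figure D1:**
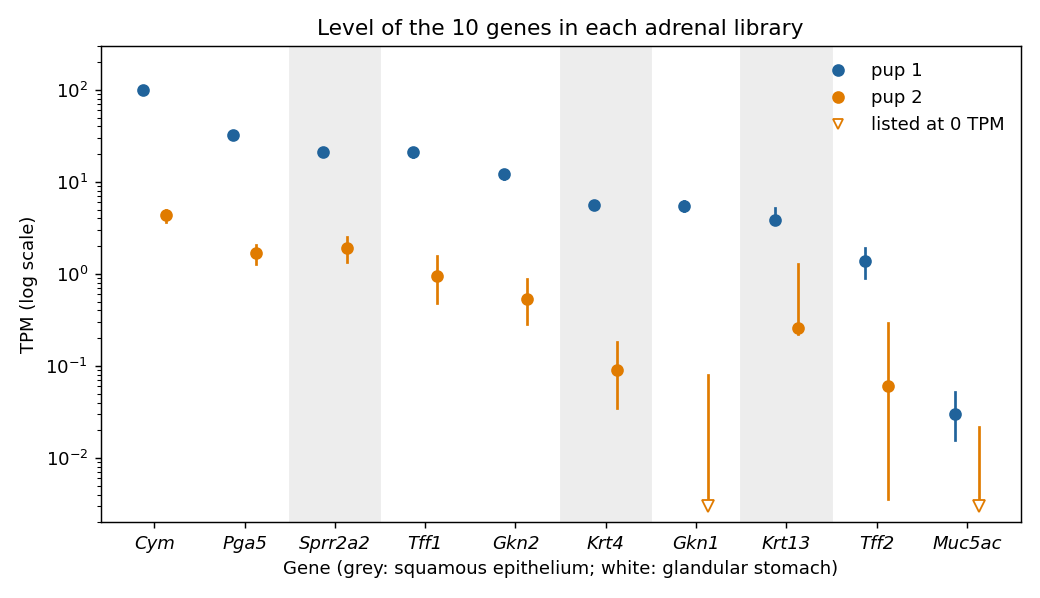
TPM of each gene (log axis) in pup 1 and pup 2, ordered by the level in pup 1, with vertical lines for the quantifier's interval and open triangles for values listed at 0. Every pup 1 point lies above its pup 2 point, and Cym is highest in both, at 99.8 and 4.32 TPM.

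The milk-clotting and digestive proteases were the most abundant glandular genes. Cym, the gene of the stomach protease chymosin (ENSMUSG00000046213.9, chromosome 3, 107211293 to 107221732, minus strand of build mm10), reached 99.8 TPM in pup 1 (quantifier's interval 95.6 to 101) against 4.32 TPM in pup 2 (3.63 to 4.94). Its mean was 52.1 ± 67.5 TPM (SD, n = 2), and for every one of the 10 genes the SD exceeded the mean. By TPM it ranked 1226 of 43346 genes in pup 1 and 11246 in pup 2. Its 4580 and 161 counts gave a 30.2-fold difference (interval 25.8 to 35.5). Pga5, which encodes a pepsinogen, the inactive form of the acid protease pepsin (ENSMUSG00000024738.5, chromosome 19, 10668956 to 10678071), reached 32.5 TPM in pup 1 against 1.67 TPM in pup 2. Its 1729 and 72 counts lay 25.5-fold apart (20.1 to 32.7). The quantifier's TPM intervals did not overlap between the pups for either protease.

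The trefoil and gastrokine genes of surface mucous cells stood at lower levels than the proteases in pup 1. Tff1, whose small peptide is secreted with gastric mucin (ENSMUSG00000024032.6, chromosome 17, 31161395 to 31165277), reached 20.9 TPM in pup 1 (18.4 to 22.9) against 0.960 TPM in pup 2 (0.483 to 1.57). Its 319 and 12 counts gave a 28.2-fold difference (15.9 to 55.2). Tff2, the trefoil peptide gene of mucous neck cells, lies 17.1 kb from Tff1 on the same strand (ENSMUSG00000024028.7, 31141049 to 31144282) and was much scarcer, at 1.38 and 0.0600 TPM. With 27 counts in pup 1 and 1 count in pup 2 its fold of 28.6 has an interval from 4.72 to 1173, so it is only weakly determined.

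Gkn2, a gastrokine that forms a complex with a trefoil peptide in the stomach (ENSMUSG00000030049.4, chromosome 6, 87373357 to 87379497, plus strand), reached 12.2 TPM in pup 1 (10.8 to 13.3) against 0.540 TPM in pup 2 (0.282 to 0.890). Its 334 and 12 counts lay 29.5-fold apart (16.7 to 57.7). Gkn1, a gastrokine of the same secreting cells (ENSMUSG00000030050.3, chromosome 6, 87345650 to 87350942, minus strand), had 5.48 TPM in pup 1 and was listed at 0 in pup 2. It had 248 counts against 0, which makes it at least 87.7-fold higher in pup 1 when pup 2 is set to the 3 counts that a count of 0 allows. The genes are neighbours 22.4 kb apart with their starts facing each other, and the bound for Gkn1 lies above the fold interval of Gkn2. Muc5ac, the main mucin of the gastric surface (ENSMUSG00000037974.11, chromosome 7, 141788972 to 141819231), was at the edge of detection, with 9 counts in pup 1 and 0 in pup 2 (0.0300 TPM and listed at 0). It was below the count minimum, and its lower bound was only 3.18-fold, with an exact interval from 2.09-fold.

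**Figure D2:**
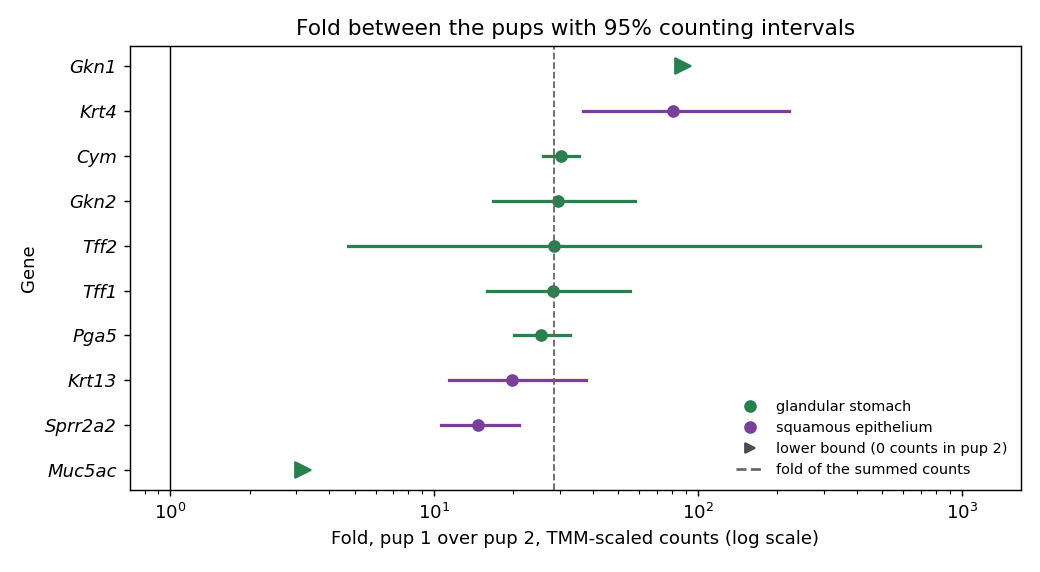
Fold of TMM-scaled counts, pup 1 over pup 2 (log axis), for each gene, with exact 95% intervals as bars, right-pointing triangles for lower bounds and a dashed line at the 28.5-fold of the summed counts. The intervals of Gkn2, Tff1, Tff2, Cym, Pga5 and Krt13 cross the dashed line, Krt4 lies to its right and Sprr2a2 to its left.

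Start-site sequence was at hand for 5 of the 10 genes (RefSeq, build GRCm38.p6), and it is shown to give the letters upstream of the members described here; no value ties these letters to the levels. Each line gives the 250 bases before the RefSeq start, 5′ to 3′ on the gene's strand. These starts can differ from those of the gene spans printed in this report, which come from GENCODE M21. The Sprr2a2 window lies inside the printed span of its gene, and the windows of Gkn1 and Gkn2 overlap theirs. Capitals mark GATAA on either strand (TTATC when read on the opposite one), the core letters that GATA factors bind, and TATAAA or its reverse complement TTTATA, the TATA box. The windows are chr6:87350916-87351165 (minus strand) for Gkn1, chr6:87373115-87373364 (plus) for Gkn2, chr3:107221733-107221982 (minus) for Cym, chr11:100121567-100121816 (minus) for Krt13 and chr3:92250397-92250646 (plus) for Sprr2a2.
Gkn1: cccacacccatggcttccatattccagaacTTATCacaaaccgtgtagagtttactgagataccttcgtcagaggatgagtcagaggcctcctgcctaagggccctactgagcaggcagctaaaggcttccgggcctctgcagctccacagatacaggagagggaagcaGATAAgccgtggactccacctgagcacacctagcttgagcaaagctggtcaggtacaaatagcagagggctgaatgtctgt
Gkn2: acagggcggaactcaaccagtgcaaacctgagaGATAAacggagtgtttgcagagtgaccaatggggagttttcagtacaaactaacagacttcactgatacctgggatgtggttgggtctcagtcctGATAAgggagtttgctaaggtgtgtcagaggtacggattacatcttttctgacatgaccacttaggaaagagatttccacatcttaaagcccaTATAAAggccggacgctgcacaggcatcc
Cym: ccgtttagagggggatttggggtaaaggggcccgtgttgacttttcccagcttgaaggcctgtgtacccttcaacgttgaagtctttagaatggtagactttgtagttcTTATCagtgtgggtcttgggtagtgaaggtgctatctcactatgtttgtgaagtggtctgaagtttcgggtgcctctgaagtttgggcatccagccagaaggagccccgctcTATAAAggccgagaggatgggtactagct
Krt13: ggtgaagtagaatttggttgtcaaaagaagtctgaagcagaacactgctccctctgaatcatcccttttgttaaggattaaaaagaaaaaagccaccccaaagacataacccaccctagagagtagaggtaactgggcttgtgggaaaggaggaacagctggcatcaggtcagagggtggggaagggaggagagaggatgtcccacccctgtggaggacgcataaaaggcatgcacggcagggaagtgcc
Sprr2a2: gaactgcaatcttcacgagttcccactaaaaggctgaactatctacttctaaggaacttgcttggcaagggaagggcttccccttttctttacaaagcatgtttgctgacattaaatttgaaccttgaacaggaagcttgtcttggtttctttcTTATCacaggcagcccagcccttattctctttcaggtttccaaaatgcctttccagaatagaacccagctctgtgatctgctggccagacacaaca

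GATAA was found in 4 of these 5 windows, against 22.6% of all 32851 windows of the same length in the table. Gkn1 and Gkn2 each held 2 matches and Cym and Sprr2a2 each held 1. TATAAA was found in 2 of the 5, Gkn2 and Cym, and in both it began 29 bases before the start, against 12.4% of all windows with a match anywhere. No match overlapped another. A match is a description of letters and not of a bound site, and a window without one says nothing about the factor.

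All 3 squamous genes stood higher in pup 1 too, with folds from 14.7 to 80.8. Krt4, the type II keratin of the upper layers of internal squamous linings (ENSMUSG00000059668.5, chromosome 15, 101918535 to 101924735, minus strand), reached 5.57 TPM in pup 1 (5.02 to 6.03) against 0.0900 TPM in pup 2 (0.0353 to 0.182). Its 457 and 6 counts gave an 80.8-fold difference (36.8 to 221). Krt13, the type I keratin that pairs with it (ENSMUSG00000044041.4, chromosome 11, 100117327 to 100121566, minus strand), reached 3.87 TPM in pup 1 (3.55 to 5.21) against 0.260 TPM in pup 2 (0.220 to 1.28). Its 243 and 13 counts lay 19.8-fold apart (11.4 to 37.8). The quantifier's TPM intervals of the keratin partners overlapped in pup 1. In pup 2, where each rests on few counts, that of Krt13 lay above that of Krt4. The fold intervals of the keratins overlapped only at their ends, from 36.8 to 37.8. Their folds were not compared directly, and an overlap does not show that they are alike.

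Sprr2a2, a small proline-rich cornified envelope gene (ENSMUSG00000068893.5, chromosome 3, 92215920 to 92256724, plus strand), reached 21.3 TPM in pup 1 (19.3 to 22.9) against 1.93 TPM in pup 2 (1.33 to 2.52). Its 542 and 39 counts lay 14.7-fold apart (10.6 to 21.0), an interval below that of Krt4. Its value is uncertain by origin, because it has copies with nearly the same sequence. The transcript that held 99.7% of its TPM in pup 1 and 100% in pup 2 (ENSMUST00000090871.2, 722 bases) had all 623 of its 100-base windows also present in a transcript of Sprr2a1 or Sprr2a3. The 300 bases around the start of Sprr2a1 equalled those of Sprr2a2 at 300 of 300 positions. Sprr2a1 had 25 counts in pup 1 and 0 in pup 2, and Sprr2a3 24 and 9. The copies summed to 591 and 48 counts, a 13.1-fold difference (9.72 to 17.9), so the direction did not rest on how reads were divided among them.

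Cym and Pga5 made up most of the 10 genes' counts in both pups although the total differed widely. Cym held 54.0% of the members' counts in pup 1 and 50.9% in pup 2, and Pga5 20.4% and 22.8%. Tff1 held 3.76% in each, and Gkn2 3.94% and 3.79%. In percentage points the largest shifts were in Sprr2a2, with 6.38% and 12.5%, and in Krt4, with 5.38% and 1.90%. Gkn1 went from 2.92% to 0. The interval of the fold held that of the summed counts for 7 of the 10 genes. It lay wholly beyond it for Gkn1 and Krt4, and short of it for Sprr2a2.

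**Figure D3:**
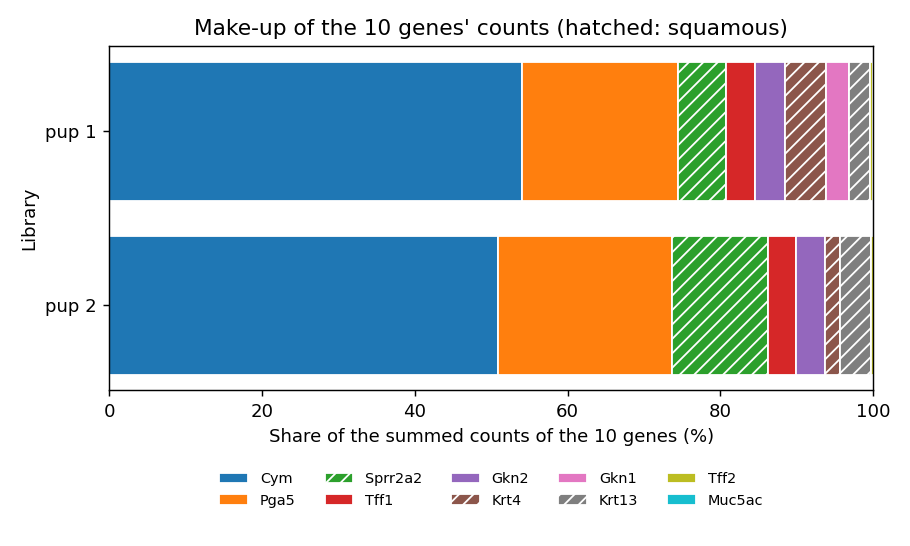
Share of the 10 genes' summed counts (%) held by each gene in pup 1 and pup 2, with squamous genes hatched. Cym and Pga5 fill most of both bars, at 54.0% and 20.4% in pup 1 and 50.9% and 22.8% in pup 2, while the Krt4 segment shrinks and the Sprr2a2 segment widens in pup 2.

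Glandular and squamous genes were then set side by side. Written as log2 of pup 2 over pup 1, the median ratio was -4.79 over the 6 glandular genes with enough counts and -4.26 over the 3 squamous genes, against 0.00 over all tested genes. Single genes ran from -9.04 (Gkn1, a value that depends on the added 0.5) to -4.28 in the glandular set and from -6.22 to -3.86 in the squamous set. The summed glandular counts, 7246 and 258, were 29.8-fold higher in pup 1 (26.3 to 33.9), and the squamous counts, 1242 and 58, were 22.7-fold higher (17.5 to 30.1). These intervals overlap. Squamous genes held 14.6% of the members' counts in pup 1 (exact 95% interval 13.9% to 15.4%) and 18.4% in pup 2 (14.2% to 23.1%). The share rested on the copy-bearing gene, since without Sprr2a2 it was 8.81% in pup 1 (8.20% to 9.45%) and 6.86% in pup 2 (4.18% to 10.5%), the opposite order. The intervals of the pups overlap in both versions, and the sum joins a lower share of Krt4 with a higher share of Sprr2a2 in pup 2. By TPM the squamous share was 15.2% in pup 1 against 23.2% in pup 2, with a mean of 19.2% ± 5.69 (SD, n = 2).

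Cym led the order of levels in both pups. In pup 1 it ran Cym, Pga5, Sprr2a2, Tff1, Gkn2, Krt4, Gkn1, Krt13, Tff2 and Muc5ac by TPM. The quantifier's intervals of neighbours in that order overlapped for Sprr2a2 and Tff1, for Krt4 and Gkn1, and for Gkn1 and Krt13. In pup 2 Cym was again first, and its interval stood clear of Sprr2a2, the next. Below Cym the neighbours' intervals overlapped except between Krt13 and Krt4, so most of the order in pup 2 was not resolved. Of the 10 genes, 7 had a single transcript in the annotation used. Among the other 3, Krt13 had all its counts on 1 of 3 transcripts in both pups, Muc5ac had its 9 counts on 1 of 3, and Sprr2a2 is described above.

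Other genes of the glandular stomach followed only in part. Here and in the lists that follow, TPM pairs sit further towards pup 2 than TMM-scaled counts, with a median log2 difference of 0.38. Directions by TMM-scaled counts are relative to the bulk of genes. Scaling by the 5717 and 1022 spike-in counts instead moves every log2 ratio by 2.57. Genes under 5.93-fold higher in pup 1 then turn to pup 2, as do the medians of the other stomach, squamous, epidermal, intestinal and liver lists. By their log2 ratios all 10 members stay higher in pup 1, but this same contrast chose them. For Muc5ac and Tff2 the interval of the log2 ratio ends at -1.07 and -2.24, so with spike-in scaling it reaches past 0. Of 14 listed genes of mucous and surface cells, 12 had enough counts. Of these, 7 were at least 2-fold and 3 at least 10-fold higher in pup 1, and 1 was at least 2-fold higher in pup 2. The median log2 ratio of the 12 was -1.52. Psca, a surface antigen of stomach epithelium, had 4.07 TPM in pup 1 against 0.24 TPM in pup 2, a 22.1-fold difference (9.87 to 61.4). Cldn18, a tight junction claudin of stomach and lung, had 1.81 and 0.66 TPM (3.11-fold, 2.19 to 4.49). Tff3, the trefoil gene typical of intestinal goblet cells, had 28.4 and 13.9 TPM, only 2.68-fold apart (2.25 to 3.20), an interval below those of its relatives Tff1 and Tff2. Ctse, an aspartic protease related to Pga5 and Cym but also made by blood cells, had 198 counts in pup 1 and 268 in pup 2. Gkn3, the remaining gastrokine, had 9 counts and 1 count, and Muc6, a mucin of the deep glands, 59 and 50.

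Markers of the acid- and pepsinogen-secreting cells of the mature gland were scarce. Of 10 listed genes, 3 reached 1 TPM in either pup, 6 had enough counts, and 2 of these 6 were at least 10-fold higher in pup 1. Those 2 were Pgc, the gene of pepsinogen C, with 77 and 3 counts (27.2-fold, 8.98 to 135), and Atp4b, the smaller subunit of the acid pump, with 40 counts and 1 count (42.4-fold, 7.19 to 1717). Atp4a, the large pump subunit, had 168 and 95 counts and lay only 1.88-fold apart (1.45 to 2.44). Esrrg, a nuclear receptor of parietal and other cells, had more counts in pup 2 (220 and 304). Gif, the intrinsic factor gene, had 13 counts and 1 count, and Lipf, gastric lipase, had 0 in both. Among endocrine genes Sst (somatostatin, 85 and 12 counts) and Ghrl (ghrelin, 19 and 4) were at least 2-fold higher in pup 1. Hdc, which makes histamine in mast cells and the stomach, was 2.26-fold higher in pup 2 (825 and 1979 counts), and Gast (gastrin) had 7 and 2 counts.

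Transcription factors of the foregut gave a mixed picture. Of 11, 10 had enough counts, 6 of these were at least 2-fold higher in pup 1, none was 2-fold higher in pup 2, and the median log2 ratio was -1.24. Foxa1, a pioneer factor of gut endoderm, stood at 38 and 3 counts (13.4-fold, 4.26 to 68.0). Sox2, which marks stomach and oesophagus in the gut tube, stood at 45 and 20, and Barx1, a factor of stomach mesenchyme, at 14 and 6. Hnf4a had 1.17 and 0.57 TPM, Foxa3 1.63 and 0.85 TPM and Klf5 40.3 and 20.4 TPM. Gata6 and Gata4, which the gastric epithelium shares with the adrenal cortex, did not follow the members: Gata6 had 15.3 and 28.9 TPM and Gata4 2.11 and 2.83 TPM.

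Genes of the squamous lining were read by layer. Of 31 listed genes of the upper layers, 17 had enough counts, and 11 of these were at least 2-fold and 4 at least 10-fold higher in pup 1. Their median log2 ratio was -1.30. Sprr3, an envelope protein abundant in the oesophagus, had 2.76 and 0.19 TPM (18.9-fold, 8.93 to 48.1), and Cnfn, cornifelin, 8.04 and 0.66 TPM (15.1-fold, 8.23 to 31.0). Sprr1a had 5.12 and 1.21 TPM (5.53-fold, 3.67 to 8.61). Rptn (repetin) had 53 counts and Ivl (involucrin) 18 in pup 1, both with 0 in pup 2, while Crnn (cornulin) had 0 in both. The most abundant genes of that list did not follow: Ly6d had 806 and 609 TPM, and Ecm1 221 and 311 TPM. Perp, a desmosome protein, had 9.93 and 4.45 TPM.

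In the basal layer the median lay nearer 0. Of 10 genes, 8 had enough counts, 3 of them at least 2-fold and 0 at least 10-fold higher in pup 1. Their median log2 ratio was -0.64. Krt5, the basal keratin, had 81 and 25 counts (3.44-fold, 2.17 to 5.62), and Trp63, the master factor of stratified epithelia, 56 and 25. Krt15 had 1.33 and 0.50 TPM and Itgb4 1.99 and 1.71 TPM. Krt14, the partner of Krt5, had 6.23 and 7.17 TPM. In TMM-scaled counts Krt14 was 1.09-fold higher in pup 1 (0.936 to 1.27), an interval that holds 1. Dsg3 had 9 counts in pup 1 and 0 in pup 2.

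Epidermal genes were also mostly higher in pup 1. Their median difference changes sign under spike-in scaling. It was smaller than that of the squamous members, but nothing is read from this, because the same contrast chose those members. Of 11 genes, 5 had enough counts. All 5 were higher in pup 1, 4 of them at least 2-fold and 1 at least 10-fold. Their median log2 ratio was -2.18, and all 11 summed to 16.0 and 9.64 TPM. Lor, loricrin of the cornified envelope, had 3.92 and 1.02 TPM (5.04-fold, 3.77 to 6.85), Krt1 2.18 and 0.62 TPM and Krt10 8.56 and 7.62 TPM. Hrnr had 80 and 6 counts (14.1-fold, 6.22 to 39.7), an interval that held the folds of Krt13 and Sprr2a2. The epidermal keratins Krt2 and Krt77 were the only 2 of the 11 genes with 0 in both. The part of skin RNA in the values of Sprr2a2, Krt4 and Krt13 was not tested.

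**Figure D4:**
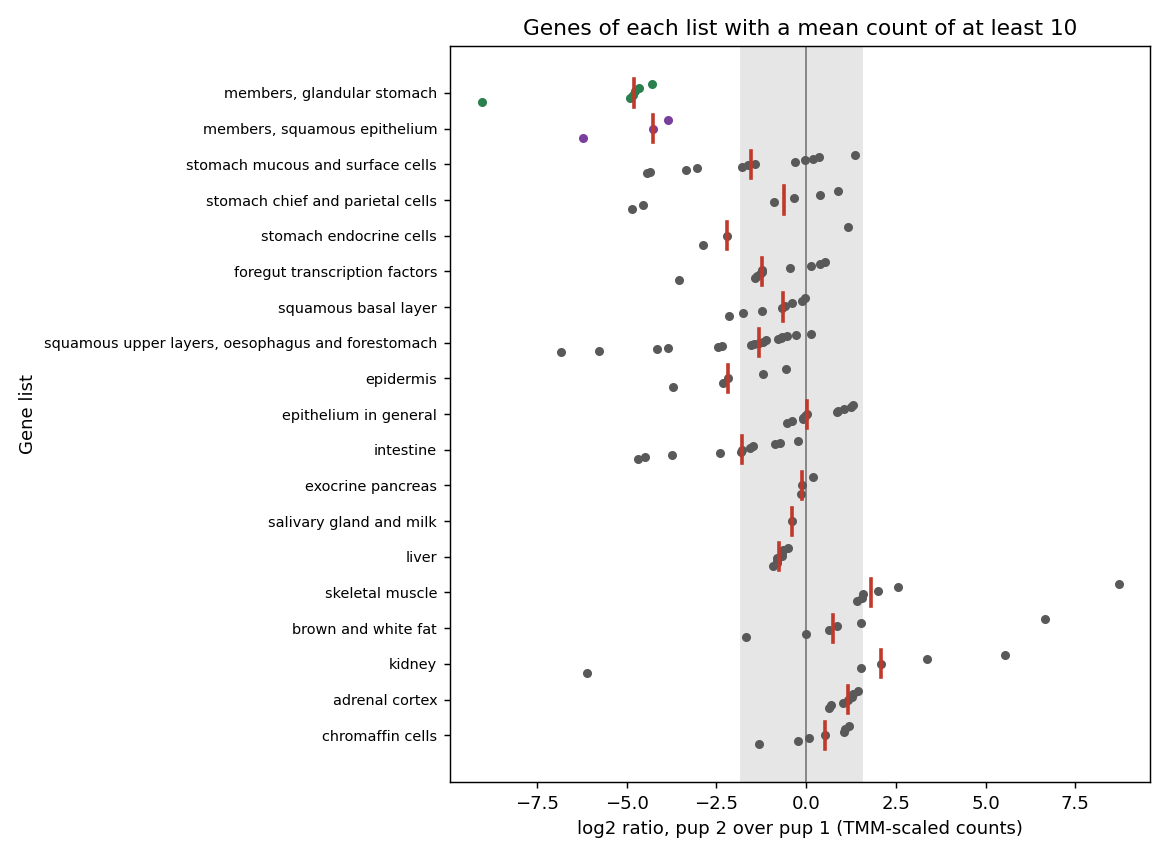
log2 ratio of pup 2 over pup 1 (counts plus 0.5, scaled by TMM) for every listed gene with a mean count of at least 10, by gene list, with red bars at the list medians and a grey band for the central 95% of all tested genes (-1.80 to 1.56). The member genes lie left of the band, and points of genes with 0 counts in a pup, such as Gkn1, depend on the added 0.5, while spike-in scaling would move all points right by 2.57 and carry the negative medians of the other lists past 0.

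The intestinal genes with enough counts were also higher in pup 1. Of 13 listed, 11 had enough counts, and 8 of these were at least 2-fold and 3 at least 10-fold higher in pup 1. Their median log2 ratio was -1.79. Fabp2, the fatty acid binding protein of enterocytes, had 25.2 TPM in pup 1 against 2.47 TPM in pup 2 (13.3-fold, 10.4 to 17.3). Lct, lactase, had 73 and 3 counts (25.8-fold, 8.49 to 128). Alpi, the intestinal alkaline phosphatase, named after its values were seen, had 157 and 6 counts (27.8-fold, 12.5 to 76.8). The fold intervals of Lct and Alpi held the folds of Gkn2, Tff1, Tff2, Cym and Pga5, and of the squamous genes Krt13 and Sprr2a2. That of Lct also held the fold of Krt4 and the bound for Gkn1. Both of these values lay beyond the interval of Alpi, but the exact intervals of Krt4 and Gkn1 began inside it, at 36.8-fold and 70.8-fold. Apoa4 (51.7 and 19.6 TPM), Fabp1 (177 and 127 TPM) and Lgals4 (12.4 and 13.8 TPM) were nearer between the pups, and liver also makes Fabp1 and Apoa4. In TMM-scaled counts Lgals4 was 1.17-fold higher in pup 1 (1.03 to 1.33). Guca2a had 5.61 and 1.36 TPM and Cdh17 1.86 and 0.69 TPM. Cdx2, the intestinal master factor, had 13 counts in pup 1 and 0 in pup 2.

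Genes shared by simple epithelia did not go with the members. Of 11 such genes, all with enough counts, 0 were at least 2-fold higher in pup 1 and 3 at least 2-fold higher in pup 2, and their median log2 ratio was 0.02. Krt8 had 11.8 and 15.2 TPM, Krt19 25.4 and 31.2 TPM, Krt18 15.4 and 13.9 TPM, Krt7 10.3 and 13.8 TPM and Cldn3 6.05 and 7.50 TPM. By TMM-scaled counts their log2 ratios were -0.03, -0.08, -0.53, 0.02 and -0.08 in that order. Epcam, the general epithelial adhesion gene, was 2.49-fold higher in pup 2, with 2.82 and 9.16 TPM.

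Several neighbouring tissues also differed between the libraries, and their part in the members' values was not tested. All 8 liver genes were higher in pup 1, none by 2-fold. Their median log2 ratio was -0.75, with summed levels of 2326 and 1783 TPM. The 6 skeletal muscle genes were all at least 2-fold higher in pup 2 (summed 72.9 and 296 TPM), as were 2 of 6 fat genes (35.0 and 73.3 TPM) and 4 of the 5 kidney genes with enough counts (3.57 and 13.4 TPM over all 8). In the fat and kidney lists, 1 gene each was at least 2-fold higher in pup 1. The log2 ratios ran from 1.42 to 8.71 in muscle, -1.67 to 6.65 in fat and -6.11 to 5.53 in kidney. Those of genes with 0 counts in a pup depend on the added 0.5. Cortex genes had a median log2 ratio of 1.18 and chromaffin genes of 0.53.

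Genes with a pattern like that of the members were sought by the same ratio. At or below the members' median log2 ratio of -4.76 there were 43 other genes with enough counts, 29 of them protein-coding. The 10 of these with the highest TPM in pup 1 included 5 cornified envelope genes of a chromosome 3 cluster that also holds the Sprr genes. They were Crct1 (96 and 0 counts), Lce3c (63 and 1), Lce3e (37 and 0), Lce1c (40 and 0) and Lce3a (22 and 0). Crct1 was at least 33.9-fold higher in pup 1 with pup 2 set to 3 counts, and its exact interval began at 27.1-fold. Also among the 10 were Clps, the colipase gene, with 38 counts and 1 count, and Kap, a gene known from kidney, with 32 and 0. The other 3 were Zfp781 (58 and 0), 2210407C18Rik (42 and 1) and Sectm1b (44 and 1). The highest of these in pup 1 was Crct1, at 3.84 TPM, just under Krt13. With 2 libraries, likeness rests on 1 ratio per gene and says nothing of shared control.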

How the data were processed

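Per the labels, RNA was extracted with Ambion mirVana, and libraries were made from 10 ng with spike-ins. The deposited text files name mm10 and GENCODE M4. Neither aligner nor quantifier is named in the labels or headers. Per the file headers, the authors' gene tables hold expected counts (estimated, not whole for 15.3% and 15.9% of Ensembl rows), posterior mean counts, TPM and FPKM. The deposited interval bounds and posterior mean TPM were treated as a signal without a fixed total, and the deposited isoform percent comes from the transcript tables.

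Counts were rounded. Numbered rows and spike-ins (0.0138% and 0.00250% of counts) were left out. Symbols and coordinates came from GENCODE M21, matched by Ensembl identifier, with all 184 listed entries found. The log2 ratio sets pup 2 over pup 1 after adding 0.5 to each count and scaling by TMM (edgeR 4.0.16 under R 4.3.3). It was read where the mean count reached 10. Printed folds use scaled counts without the 0.5. Intervals are exact binomial (95%). A count of 0 was set to 3 per library for bounds. No test was run, because each pup is 1 library.

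The members and the 17 other gene lists were chosen with earlier results of these data known. The text names all members, up to 6 genes per list at 1 TPM or more by mean TPM, up to 3 under 1 TPM, and the 10 protein-coding genes of highest pup 1 TPM at or below the members' median ratio. Sprr2a1, Sprr2a3 and Alpi were named outside that rule. Alternatives were DESeq2 1.42.0 size factors, spike-in scaling, posterior counts, TPM, FPKM, another pseudocount, other count minimums, a length trend, and leaving out Sprr2a2 or a pup. A trend on length and GC content was added after seeing the data. Scripts (python 3.11.15, numpy 2.4.6, pandas 2.3.3, scipy 1.17.1, matplotlib 3.10.9) were tested on simulated data.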

Additional observations from a re-analysis of the deposited data

How the results depend on the processing

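By their log2 ratios, all 10 members stayed higher in pup 1 under each of 8 alternatives for scaling, unit, pseudocount or trend. With spike-in scaling, however, the intervals of Muc5ac and Tff2 reached past 0, and the members were chosen on this contrast. Scaling by spike-in counts moved the median log2 ratio from -4.76 to -2.19 over all members, to -2.23 over the glandular and to -1.69 over the squamous genes. It left 2 members and 24 of all genes at least 10-fold higher in pup 1, against 9 and 98. The shift is by construction, since the spike-ins took more of pup 1. The count over all genes was 350 with no count minimum and 14 with a mean count of at least 100, where fewer or more genes enter. By TPM the log2 ratios of Cym (-4.53) and Pga5 (-4.28) moved past their counting intervals. The squamous share of members' TPM was 19.2% on average, 15.2% to 23.2% with either pup left out, and 4.81% without Sprr2a2. No paired analysis was possible because both libraries belong to 1 group. Depth limits Muc5ac, Tff2 and most pup 2 values, which rest on few counts.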

Other observations

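Few genes of other digestive glands had enough counts to compare. Of 10 exocrine pancreas genes, 3 had enough counts and 0 of these were 2-fold apart. Among them, Cela1 had 104 TPM in pup 1 against 156 TPM in pup 2, and Cpa1 had 0.70 and 1.06 TPM. By TMM-scaled counts their log2 ratios were 0.20 and -0.12. The pancreatic factor Ptf1a and the enzyme genes Cel and Cela3b had 0 counts in both pups. Of the salivary genes Smr3a, Muc19 and Dcpp1 had 0 counts in both pups, and Amy1, an amylase that liver also makes, had 8.61 and 8.58 TPM. The milk protein genes Csn2 (0 and 3 counts), Csn1s1 (2 and 1) and Wap (0 and 2) were at or under 3 counts in each pup.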
